A study of Mus musculus with 16 samples.

Results

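The 7 genes described here are myeloid genes of the mouse, measured in brain tumours and in control brain. Gpnmb, Lyz2 and Lgals3 were taken as genes of recruited or activated macrophages, and C1qb, Fcrls, Tyrobp and Hcst as genes of microglia, the resident macrophages of the brain. They were picked by name with the tumour minus control differences of these arrays already known, so those differences are given as a description, with no test. The platform annotation gave them 13 probes, of which 11 passed the detection filter, and all 7 were among the 11755 genes measured.

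The tumours came from a mouse model of high-grade glioma that knocks out tumour suppressors by an inducible Cre recombinase, and they were collected once neurological symptoms appeared. There were 8 tumours, labelled independent of each other, 5 dorsal controls and 3 ventral controls, labelled biological replicates, with 1 Illumina bead array of total RNA for each. The study's design text counts 10 tumours, and the other 2 were not analysed here. Which suppressors were deleted, the genotype of the control mice, ages, sexes and the brain region of each tumour are not given in the sources used here.

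Between 17565 and 20430 of 45281 probes were detected on an array, at a detection p-value under 0.05. Pairs of arrays correlated at r = 0.88 to 0.98 among tumours and at r = 0.94 to 0.99 within each control region. The 16 arrays lay on 3 chips. Chip 1 held dorsal control 1, ventral control 1 and tumours 6 to 8, chip 2 held dorsal controls 2 to 4 and tumours 1 and 2, and chip 3 held dorsal control 5, ventral controls 2 and 3 and tumours 3 to 5. Signals below are log2 values after background correction and quantile normalization. They rank arrays for 1 probe and say nothing of the order between probes.

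Microglia settle in the brain before birth and renew themselves there, while monocytes from blood can enter a diseased brain and become macrophages. Both lineages depend on the ETS-family factor PU.1 and pass signals from surface receptors through small adaptors. In high-grade glioma both are known to gather in the tumour mass and at its border. Among the genes here, Tyrobp encodes the adaptor DAP12 and Hcst the adaptor DAP10. Their genes are direct neighbours on chromosome 7.

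For 6 of the 7 genes, all but Tyrobp, RefSeq promoter sequences of build GRCm38.p6 were at hand. The 250 bases before the start were searched on both strands for AGGAAG, a core that PU.1 binds, for the overlapping core GAGGAA, for CACGTG, a core known for MITF and TFE factors, for its variant CATGTG, and for TGANTCA, known for AP-1 factors. AGGAAG was chosen for display after the sequences were seen, and it can overlap GAGGAA by 5 letters. It stood in 4 of the 6 promoters and in 29.5% of all 32851 promoters searched in the same way. GAGGAA stood in 2 of 6 and in 23.3% of all, CATGTG in 2 of 6 and in 12.3% of all, CACGTG in 0 of 6 and in 6.0%, and TGANTCA in 0 of 6 and in 6.7%. The promoters of Fcrls (chr3:87263525-87263774, minus strand), C1qb (chr4:136886201-136886450, minus strand), Lyz2 (chr10:117282273-117282522, minus strand) and Gpnmb (chr6:49036268-49036517, plus strand) are shown, the Fcrls promoter because it held the most matches and the Gpnmb promoter because it held none. They run 5′ to 3′, and capitals mark AGGAAG or its reverse complement.
Fcrls: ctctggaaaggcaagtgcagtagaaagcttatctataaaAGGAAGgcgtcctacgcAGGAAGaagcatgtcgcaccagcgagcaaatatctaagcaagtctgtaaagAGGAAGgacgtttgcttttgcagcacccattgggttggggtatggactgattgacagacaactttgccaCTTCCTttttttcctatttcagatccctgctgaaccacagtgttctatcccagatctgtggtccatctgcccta
C1qb: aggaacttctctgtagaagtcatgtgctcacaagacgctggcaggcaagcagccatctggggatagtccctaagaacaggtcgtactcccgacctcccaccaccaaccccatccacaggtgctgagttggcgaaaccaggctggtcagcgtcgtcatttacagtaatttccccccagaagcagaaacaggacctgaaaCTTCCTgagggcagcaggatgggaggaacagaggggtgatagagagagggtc
Lyz2: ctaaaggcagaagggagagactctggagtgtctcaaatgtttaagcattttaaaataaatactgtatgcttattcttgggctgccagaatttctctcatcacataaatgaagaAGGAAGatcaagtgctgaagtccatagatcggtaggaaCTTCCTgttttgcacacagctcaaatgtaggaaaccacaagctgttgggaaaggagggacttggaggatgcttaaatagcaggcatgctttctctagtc
Gpnmb: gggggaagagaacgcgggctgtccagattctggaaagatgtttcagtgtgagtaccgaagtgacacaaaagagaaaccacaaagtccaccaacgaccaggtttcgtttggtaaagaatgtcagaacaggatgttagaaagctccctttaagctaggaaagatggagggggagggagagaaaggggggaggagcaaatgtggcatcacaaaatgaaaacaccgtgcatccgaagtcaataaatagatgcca
Fcrls held 4 matches, 3 of them within the far part of the window, between 143 and 211 bases upstream of the start. Lyz2 held 2, at 137 and 99 bases upstream, and C1qb held 1, at 52 bases. Hcst, not shown, held 2, and Lgals3 held 0. A match of these letters is a description of the window and no evidence of a bound site.

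The macrophage genes showed the widest gaps between tumour and control brain. Gpnmb, which encodes a lysosomal and cell-surface glycoprotein of phagocytes, lay at 5.88, 6.19, 6.31, 6.08 and 5.50 in dorsal controls 1 to 5 and at 5.49, 5.74 and 5.44 in ventral controls 1 to 3. In the tumours it ran from 8.62 over a median of 10.98 to 12.89. The lowest tumour was thus above every control array, and the 2 control regions overlapped. The tumour mean exceeded the mean of both control regions by 5.00 ± 0.48 on the log2 scale (SE of the limma contrast), a 32.1-fold difference.

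A second Gpnmb probe was undetected on all 8 control arrays and detected in all 8 tumours, at least 3.12-fold above the controls, where the lowest detected signal of each control array stood in for the undetected probe. The third was detected in tumour 1 only. Over the 8 tumours the first and second probe correlated at r = 0.92. Tumour 1 was the only array on which all 3 probes were detected.

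Lyz2 encodes lysozyme M, a bacteriolytic enzyme of macrophages and granulocytes. Its signal was 6.48, 5.44, 6.42, 5.93 and 6.11 in dorsal controls 1 to 5 and 5.47, 6.79 and 6.19 in ventral controls 1 to 3. The tumours ranged from 9.27 over a median of 11.05 to 12.61, again with no overlap with the controls. The difference was 4.83 ± 0.46, or 28.4-fold, and it was about as large against the dorsal (29.1-fold) as against the ventral controls (27.6-fold).

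The second Lyz2 probe was undetected in all controls and at least 4.50-fold higher in tumours, and the third was detected in tumour 1 alone. Lyz1, the neighbouring and closely related lysozyme gene on chromosome 10, was the gene most like Lyz2 over the tumours (r = 0.98). Probes may pick up transcripts of both, so the share of each gene in these signals is uncertain.

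Lgals3 encodes galectin-3, a lectin that binds sugar chains of glycoproteins at damaged membranes and on the cell surface. It was lowest in the dorsal controls, at 4.57, 4.71, 4.34, 4.94 and 5.06, where only 2 of the 5 arrays detected it. The ventral controls stood at 6.29, 5.88 and 6.40, and the tumours at 8.85 to 12.03 with a median of 10.03. The 3 groups did not overlap, in the order dorsal, ventral, tumour. The tumours were 14.7-fold above the ventral controls. The measured ratio to the dorsal controls was 40.5-fold, but with 3 of those 5 arrays below detection its size is uncertain.

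**Figure D1:**
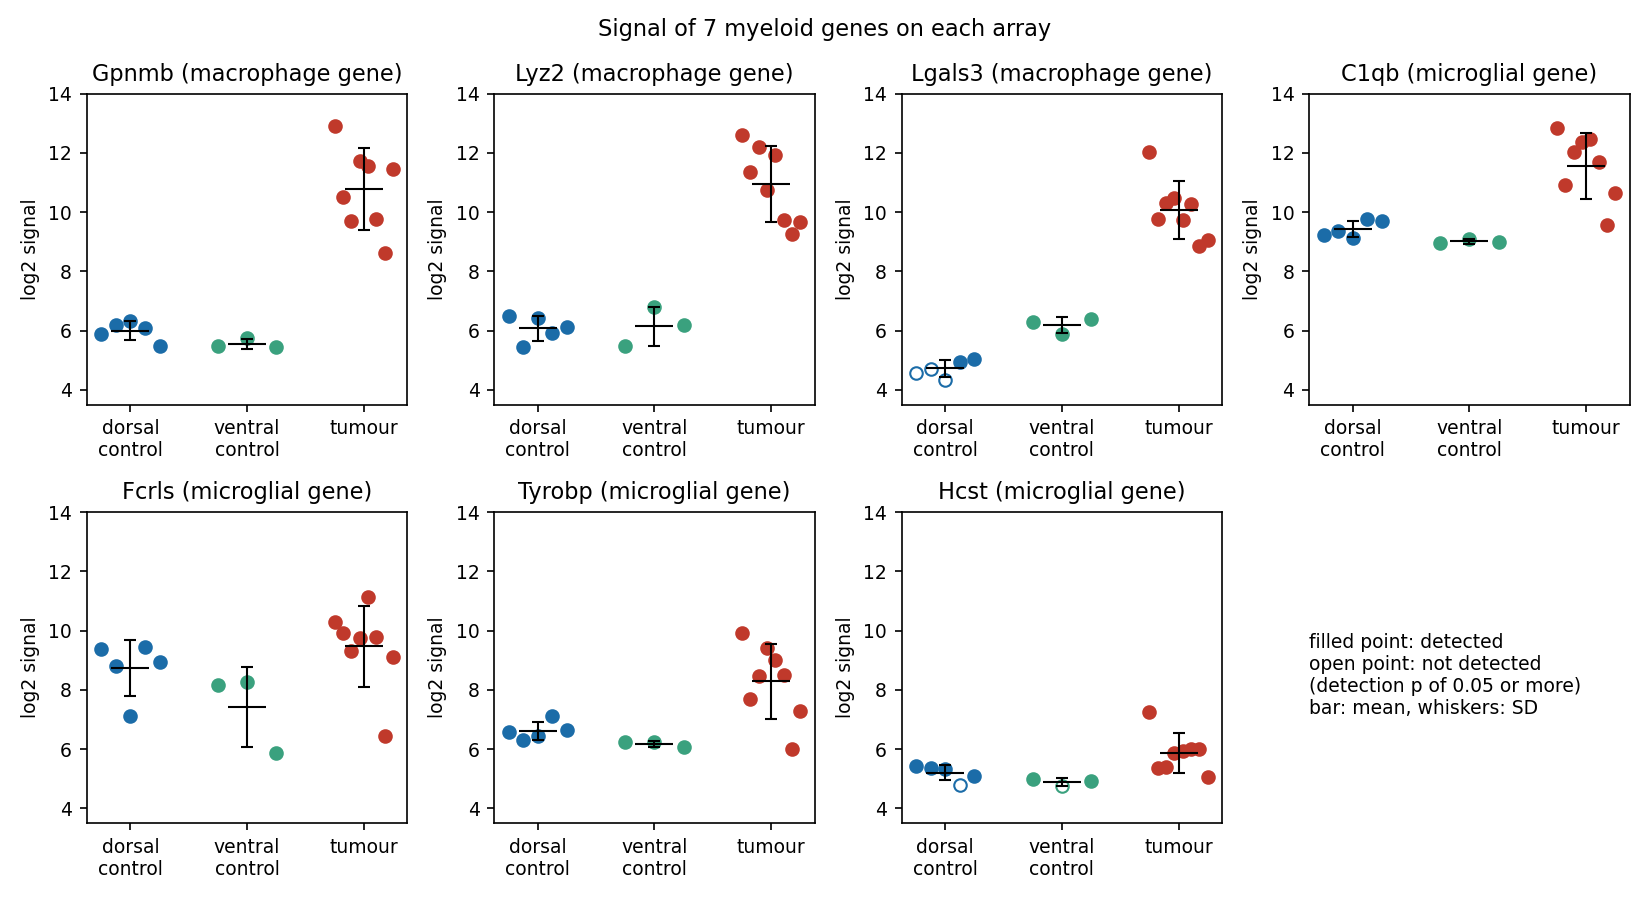
Log2 signal (vertical axis) of each of the 7 genes in 5 dorsal controls, 3 ventral controls and 8 tumours, 1 point per array, with bars at the group mean and whiskers of 1 SD. Open points are arrays that did not detect the probe. Gpnmb, Lyz2 and Lgals3 separate all 8 tumours from all controls, whereas Fcrls and Hcst overlap.

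The microglial genes differed less between tumour and control brain. The probes used for C1qb, Tyrobp and Fcrls were detected on every control array, as were those used for Gpnmb and Lyz2. C1qb encodes a chain of C1q, the recognition molecule of the classical complement pathway. It lay at 9.23, 9.35, 9.12, 9.75 and 9.69 in the dorsal and at 8.94, 9.09 and 8.99 in the ventral controls. Tumours spanned 9.56 to 12.83 with a median of 11.86, and 7 of the 8 exceeded every control. The exception was tumour 7, which fell among the dorsal controls. The mean difference was 2.34 ± 0.39, or 5.07-fold.

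Tyrobp, the DAP12 adaptor that carries signals of TREM2 and related receptors, was at 6.58, 6.29, 6.42, 7.11 and 6.63 in the dorsal and at 6.23, 6.25 and 6.07 in the ventral controls. Its tumour values went from 6.00 over a median of 8.49 to 9.92. Tumour 7, at 6.00, was below all 8 controls, and the other 7 tumours were above all of them. The mean difference was 1.89 ± 0.44, or 3.71-fold.

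Fcrls, an Fc receptor-like gene known in the mouse as a microglial marker, varied most among controls, at 9.37, 8.79, 7.12, 9.43 and 8.92 in the dorsal and 8.17, 8.25 and 5.87 in the ventral group. Tumours covered 6.45 to 11.15 around a median of 9.76, and 5 of them exceeded every control. The groups overlapped. The tumour mean was 1.67-fold above the dorsal and 4.10-fold above the ventral controls, with a difference of 1.39 ± 0.58 from the mean of both. Single arrays moved the log2 differences from each region by over 1.5 times. The difference from the dorsal controls (0.74) was 0.34 without dorsal control 3 and 1.17 without tumour 7, and that from the ventral controls (2.03) was 1.25 without ventral control 3. The 2 further probes gave 2.35-fold and 1.77-fold and correlated with the first at r = 0.86 and 0.87 over the tumours, and at r = 0.67 and 0.91 over the controls.

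Hcst, the DAP10 adaptor best known from NKG2D signalling in lymphocytes, stayed near the limit of detection in control brain. Its controls were at 5.43, 5.36, 5.33, 4.80 and 5.10 (dorsal, detected on 4 of 5 arrays) and 4.99, 4.74 and 4.92 (ventral, detected on 2 of 3). Its tumours spread from 5.06 over a median of 5.90 to 7.26, and 5 of them lay above every control. Tumour 1 stood alone at the top, and the next tumour was at 6.01. The mean difference was 0.82 ± 0.25, or 1.77-fold.

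In bulk tissue a higher signal can come from more cells of a type or from more RNA per cell, and these cannot be told apart here. All 8 tumours exceeded every control for 3 of the 7 genes, Gpnmb, Lyz2 and Lgals3, while 10.6% of all genes showed that pattern. The opposite pattern, all 8 tumours below every control, was found in 10.1% of all genes and in 0 of the 7. Since the genes were chosen on this contrast, nothing is read from the comparison. Within chips the macrophage genes kept differences of 3.59 to 4.26 on chip 1 and 4.57 to 5.45 on chip 3, against the mean of both regions. For the microglial genes chip 1 gave 1.55 (C1qb), 0.86 (Tyrobp), 0.48 (Hcst) and -0.33 (Fcrls), and chip 3 gave 2.91, 2.57, 0.77 and 2.08 in the same order. Chip 2, with no ventral control, gave 5.51 to 6.24 for the macrophage and 1.15 to 2.46 for the microglial genes against its dorsal controls. Fcrls thus changed direction on chip 1, which held tumour 7. Chip and tumour differ together, and the part of the chip was not tested.

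To set the gene groups side by side on each array, signals were expressed relative to the mean of both control means and averaged. The macrophage mean was 3.13 to 6.73 in tumours, -0.33 to -0.09 in dorsal controls and -0.03 to 0.36 in ventral controls. The microglial mean was -0.18 to 2.89 in tumours, -0.19 to 0.59 in dorsal controls and -0.72 to -0.10 in ventral controls. Tumour 1 had the highest and tumour 7 the lowest value of both. In every tumour the macrophage mean stood above the microglial mean, by 2.33 (tumour 6) to 3.84 (tumour 1). Since the genes were chosen with their tumour differences known, nothing is read from this order.

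**Figure D2:**
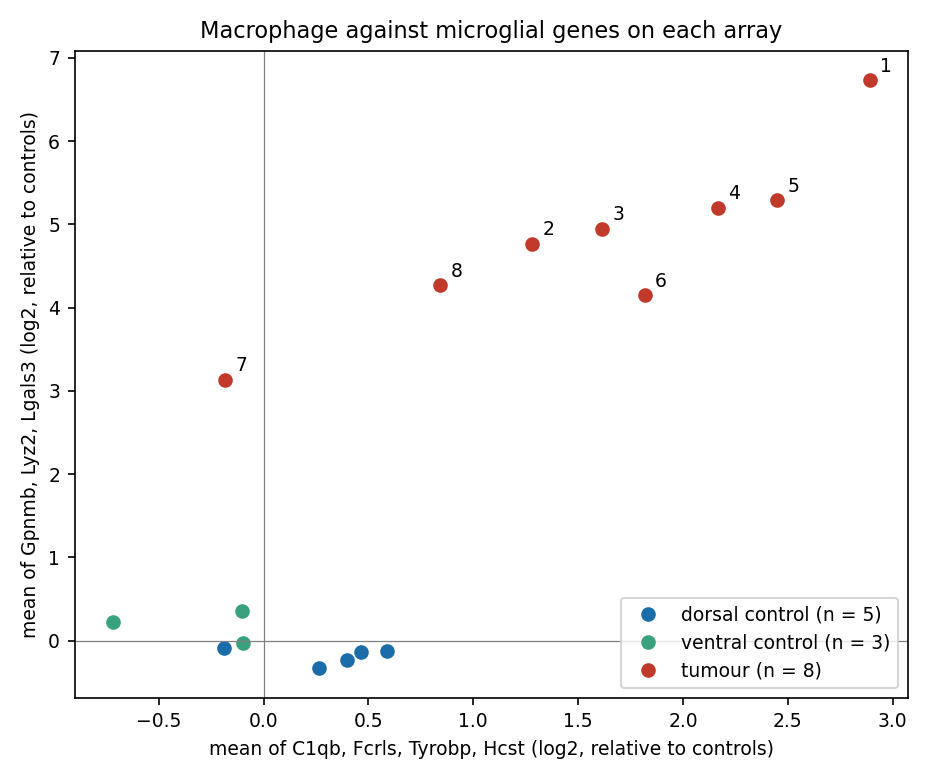
Mean of the 3 macrophage genes (vertical axis) against mean of the 4 microglial genes (horizontal axis) on each of the 16 arrays, both in log2 units relative to the controls, with tumours numbered. Tumour 7 sits at -0.18 on the microglial axis, among the controls, and at 3.13 on the macrophage axis, above all of them.

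The tumours differed from each other over a wide range. The SD over the 8 tumours was 1.38 for Gpnmb, 1.37 for Fcrls, 1.28 for Lyz2, 1.26 for Tyrobp, 1.11 for C1qb, 0.99 for Lgals3 and 0.67 for Hcst, beside a median of 0.44 over all genes. For Fcrls the span corresponded to 26.0-fold and for Gpnmb to 19.3-fold. Tumour 1 ranked first for 6 of the 7 genes and tumour 7 ranked last for 6 of the 7. Fcrls was the exception at the top, with tumour 5 first, and Hcst the exception at the bottom, with tumour 8 last. Tumour 7 had 18231 detected probes, the fewest among the tumours, tumour 1 had 20347, and tumour 6 had the most, 20430. Over the 8 tumours the number of detected probes correlated with the 7 genes at r = 0.29 (Lyz2) to 0.62 (Fcrls). Whether this depth of detection contributes was not tested.

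Pairwise relations over the tumours were not used to choose the genes and were tested. All 21 pairs had r above 0, from 0.16 (Fcrls and Hcst) to 0.99 (C1qb and Tyrobp), with a median of 0.69. The share of all gene pairs with r above 0 was not computed, so nothing is read from that count. Many genes reached such values. Among 8358 genes compared with Gpnmb, C1qb ranked 655 (r = 0.69) and Lyz2 ranked 1329 (r = 0.54). After Benjamini-Hochberg adjustment over the 21 pairs, 1 pair passed. C1qb and Tyrobp correlated at Pearson's r = 0.986 (exact two-sided permutation p = 9.9e-05, adjusted p = 0.00208, n = 8) and Spearman's rho = 0.952 (exact permutation p = 0.00114, adjusted p = 0.0240). With tumours 7 and 8, the farthest from the median, left out, r was 0.948. The chips hold 2 or 3 tumours each, too few for a value of their own, and with each chip's mean removed r was 0.984.

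Next came Lgals3 with Tyrobp (r = 0.860, rho = 0.833), C1qb with Fcrls (r = 0.833, rho = 0.762), Fcrls with Tyrobp (r = 0.819, rho = 0.714) and Lgals3 with C1qb (r = 0.813, rho = 0.762), each with an adjusted exact permutation p of 0.0594 for r. Of these, C1qb with Fcrls dropped to r = 0.387 without tumours 7 and 8, so that relation rests on them. None of the 3 macrophage pairs passed. Lyz2 and Lgals3 correlated at r = 0.693 (exact permutation p = 0.0461, adjusted p = 0.0850; rho = 0.714) and at r = 0.281 without tumours 1 and 7. Gpnmb and Lyz2 correlated at r = 0.535 (exact permutation p = 0.171, adjusted p = 0.230; rho = 0.476), and at r = -0.108 once tumours 1 and 7 were left out. Gpnmb and Lgals3 went from r = 0.608 to r = -0.391 in the same way, so these 3 relations rest on those tumours.

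The neighbouring adaptor genes Tyrobp and Hcst correlated at r = 0.521 (exact permutation p = 0.186, adjusted p = 0.230; rho = 0.500). Tumour 7 was the lowest of all for Tyrobp, while for Hcst only tumours 1 and 6 were above it. Without tumour 1 alone r was 0.173, and without tumours 1 and 7 it was 0.836, so the value depends on those tumours. Leaving out tumour 5 raised the number of pairs that passed from 1 to 4, and centring arrays on their median instead of quantile normalization raised it to 5.

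**Figure D3:**
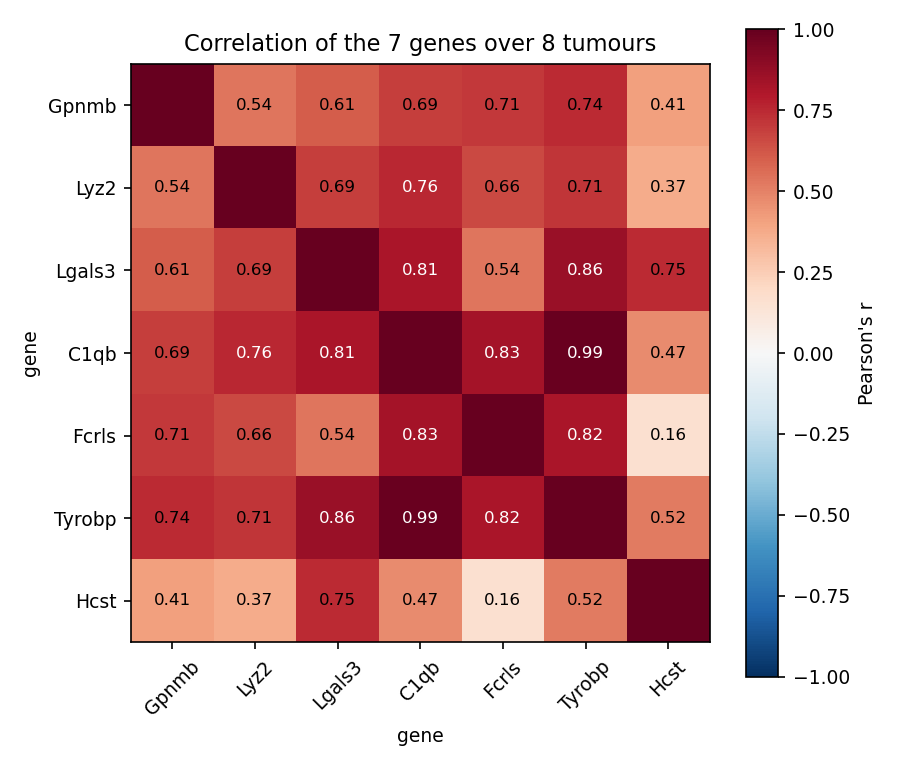
Pearson's r over 8 tumours for each of the 21 pairs of the 7 genes, as colour and printed value. Every value is above 0, C1qb with Tyrobp is the highest at 0.99, and the palest cell is that of Fcrls with Hcst, at 0.16.

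**Figure D4:**
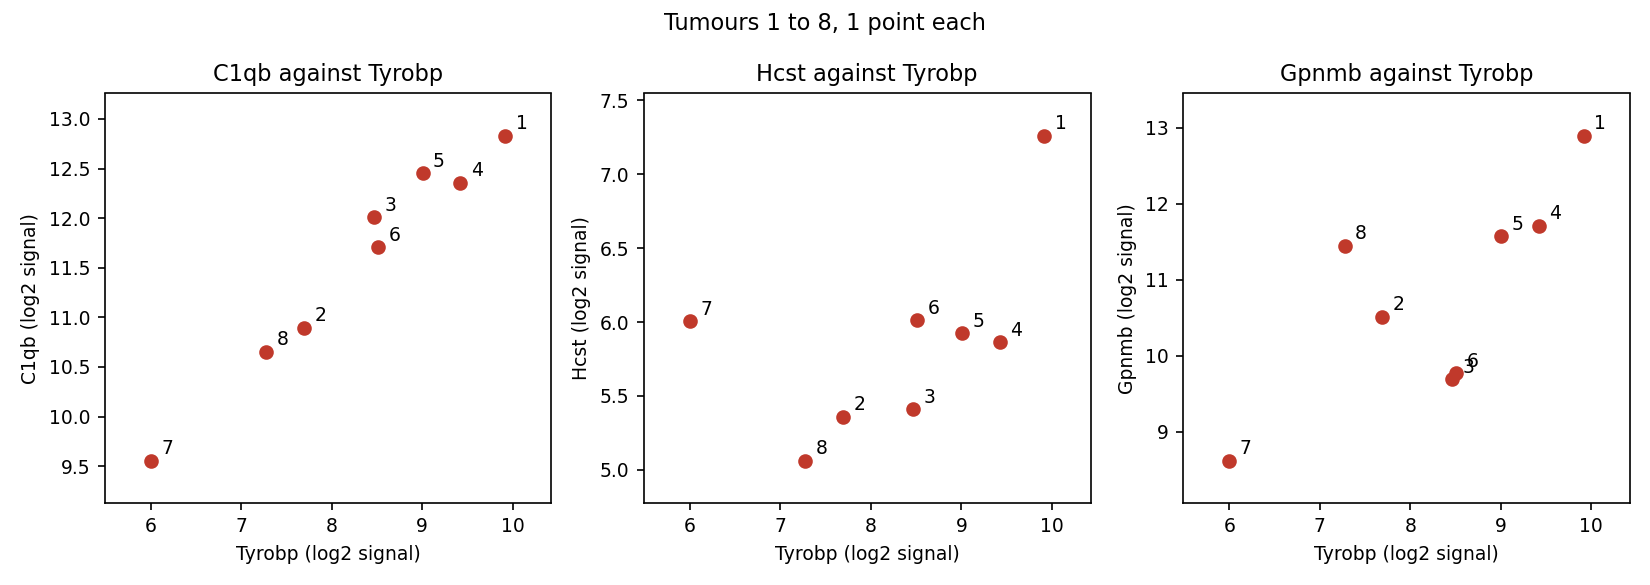
Log2 signal of C1qb, Hcst and Gpnmb (vertical axes) against Tyrobp (horizontal axes) in tumours 1 to 8, each point numbered. C1qb follows Tyrobp closely, tumour 7 lies apart for Hcst, and tumour 8 lies high for Gpnmb.

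Among 8358 genes detected in all 8 tumours, those with the most similar profile to each of the 7 genes were listed by Pearson's r over the 8 tumours, as a description. Closest to C1qb were Cyth4 (0.99), Rgs10 (0.99) and Tyrobp (0.99). Tyrobp itself was closest to B2m, Flnc and Slc11a1 (all 0.99), with C1qb at rank 4. For Fcrls they were Lgals3bp (0.91), Pld3 (0.88) and Mpeg1 (0.87). C1qb and Tyrobp were thus each within the nearest 4 profiles of the other.

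The macrophage genes had other nearest profiles. Closest to Gpnmb were Gpr146 (0.98), Mvp (0.97) and Tnfrsf19 (0.97), to Lgals3 Sh3tc1 (0.98), Bcl2a1b (0.98) and Atg10 (0.97), and to Lyz2, after Lyz1, Eps15 (0.98) and Ifi207 (0.96). The nearest profiles to Hcst were Gpr158 (0.97), Sh3gl2 (0.96) and Ube2ql1 (0.96), and all 3 had lower tumour means than control means, by log2 differences of -3.93, -2.44 and -2.53. Among the nearest profiles of the other members, Pld3 (-1.43), Rgs10 (-0.95), Atg10 (-0.62) and Eps15 (-0.15) were lower too, and all the rest were higher. The other 6 members ranked between 227 and 2769 among the genes most like Hcst, whereas Tyrobp ranked 3 for C1qb.

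The control regions offered a contrast that had not been used to choose the genes. By limma with Benjamini-Hochberg adjustment over all genes, 0 of the 7 were called between ventral and dorsal controls. Of all genes 9.45% were called, 5.16% higher and 4.3% lower in the ventral controls. Lgals3 had the lowest value of the 7 (limma adjusted p = 0.0850). It was higher in the ventral controls by 1.47 on the log2 scale (95% interval 0.40 to 2.54, not adjusted for the number of genes). It passed when tumour 1 was left out of the fit that estimates the spread (limma adjusted p = 0.0106). It also passed with array weights (1.63, limma adjusted p = 2.39e-05). Those weights were 0.36 to 0.97 in tumours, 0.55 to 2.61 in dorsal and 2.40 to 4.94 in ventral controls. They thus largely followed the group.

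For the other 6 the intervals of the ventral minus dorsal difference held 0. They were -3.06 to 0.47 for Fcrls, -1.90 to 1.02 for Gpnmb, -1.60 to 0.76 for C1qb, -1.76 to 0.91 for Tyrobp, -1.06 to 0.43 for Hcst and -1.34 to 1.49 for Lyz2. A difference of 2-fold towards lower ventral values lies within all 6 intervals, and one of 2-fold towards higher ventral values within those of Gpnmb and Lyz2. The fit pooled the spread of all 3 groups, so the intervals also carry the spread among tumours. For C1qb the SD was 1.11 in tumours, 0.28 in dorsal and 0.07 in ventral controls, and for Tyrobp 1.26, 0.31 and 0.10. For Fcrls the values were closer, at 1.37, 0.94 and 1.35. Ventral and dorsal values did not overlap for 3 of the 7, with Lgals3 higher and C1qb and Tyrobp lower in the ventral controls, next to 30.5% of all genes that did not overlap.

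The other genes of these pathways and cell types were taken from 15 lists. The lists were chosen with earlier results of these data known, so their counts and p-values are a description and no independent support. Over all genes, the same limma test called 54% when tumours were set against both regions together, 27.3% higher and 26.7% lower, with a median difference of 0.01. It called 50.1% against the dorsal controls (26% higher, 24.2% lower) and 40.7% against the ventral controls (19.6% higher, 21.1% lower). Counts below are of measured genes that rose or fell in that test, and differences are on the log2 scale with SE.

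Genes of resting microglia moved little on average, and 4 of 11 rose and 0 fell, with a median of 0.25. Ltc4s, which makes leukotriene C4, rose by 1.22 ± 0.47 (adjusted p = 0.0379) and Olfml3, a secreted matrix protein, by 1.16 ± 0.42 (adjusted p = 0.0285). Neither passed against one region alone (adjusted p of 0.101 and 0.0664 against dorsal, 0.0936 and 0.0900 against ventral controls), and the list count was 2 of 11 against the dorsal and 1 of 11 against the ventral controls. The fractalkine receptor Cx3cr1 differed by 0.01 ± 0.53, with tumours from 5.74 (tumour 7) to 10.04 (tumour 4) and all controls between 8.02 and 9.03. Its tumours therefore lay on both sides of the controls. Only 2 genes rose without any one of tumour 1, tumour 4, ventral control 1 or ventral control 3. P2ry12, the microglial purine receptor, was detected on fewer than 3 arrays and was not measured.

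Chosen after the values were seen, Sall1, a transcription factor listed as microglial, rose against the dorsal (0.85, limma adjusted p = 0.00585) and the ventral controls (1.03, limma adjusted p = 0.00624). Over the tumours Sall1 correlated with Tyrobp at r = 0.12 only, where the other measured genes of the list were at r = 0.76 to 0.98. Sparc rose against the dorsal controls (2.77, adjusted p = 9.71e-07) and was at -0.59 against the ventral ones (adjusted p = 0.186), and it was itself higher in ventral than in dorsal controls, by 3.36 (adjusted p = 1.95e-05). The microglial list had a median of -0.32 on chip 1 and of 0.93 on chip 3. The monocyte, activated phagocyte, lysosome, DAP12 and DAP10, complement, galectin and regulator lists, taken up below, also had lower medians on chip 1. Against both regions they ran from 0.44 to 0.97 on chip 1 and from 1.07 to 1.90 on chip 3.

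Markers of monocyte-derived macrophages rose in 5 of 8 measured genes and fell in 0, with a median of 1.00. Tgfbi, a secreted matrix protein induced by TGF-beta, rose by 3.16 ± 0.33 (adjusted p = 8.47e-07) and Emilin2, detected on 4 of 8 controls, by 2.63 ± 0.37 (adjusted p = 1.69e-05). F13a1, a coagulation factor subunit made by macrophages, differed by 0.07 ± 0.48. Ccr2, the receptor that draws monocytes out of the blood, was detected on fewer than 3 arrays. Of genes of activated phagocytes, 9 of 12 rose and 0 fell, with a median of 1.26. The count was 9 against the dorsal and 6 against the ventral controls alone. The tetraspanin Cd9 rose by 3.29 ± 0.22 (adjusted p = 1.01e-08) and the cystatin Cst7, detected on 2 of 8 controls and in 6 of 8 tumours, by 2.16 ± 0.52 (adjusted p = 0.00246), while the lipid carrier Fabp5 differed by 0.08 ± 0.34.

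Around Gpnmb, 8 of 14 lysosomal genes rose and 1 fell, with a median of 0.83. Grn, which encodes progranulin, rose by 2.48 ± 0.31 (adjusted p = 5.67e-06) and Cd63, a tetraspanin of late endosomes, by 2.43 ± 0.17 (adjusted p = 1.25e-08). Ctsa, cathepsin A, fell by 1.66 on the log2 scale (adjusted p = 0.00400), a call lost when all its kept probes were averaged and with the replicate number as a block. The transcription factor Tfe3 differed by 0.07 ± 0.13.

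Around Lyz2 and Lgals3, 4 of 8 galectin and lysozyme genes rose and 1 fell, with a median of 1.28. Against the dorsal controls alone 5 rose and 2 fell, and against the ventral controls 4 rose and 0 fell. Lyz1 rose by 3.99 ± 0.32 (adjusted p = 6.44e-08) and Lgals3bp, a glycoprotein ligand of galectin-3, by 3.05 ± 0.39 (adjusted p = 6.86e-06). Lgals7, the gene counted as lower (adjusted p = 0.0117), was detected in 1 of 8 tumours and 5 of 8 controls, so its size is not given. It was not tested when detection on 8 arrays was required, and it was not called with the replicate number as a block. Lgals8 differed by 0.15 ± 0.12.

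Around Tyrobp and Hcst, 11 of 14 receptors and signalling genes rose and 0 fell, with a median of 1.21. This list was wider than the partners of DAP12 and DAP10 and also held Fc gamma receptors and the Fc receptor gamma chain. The count was 10 against the dorsal and 9 against the ventral controls alone. The Fc gamma receptors Fcgr4 and Fcgr2b rose most, by 4.09 ± 0.47 (adjusted p = 2.49e-06) and 2.49 ± 0.43 (adjusted p = 0.000157). Fcgr4 was detected in all 8 tumours and on 1 of 8 control arrays, so the size of its difference is uncertain. Grb2, a broadly expressed linker to Ras signalling, differed by 0.01 ± 0.10. Named after its values were seen, Trem2, the lipid-sensing partner of DAP12, rose by 1.79 ± 0.48 (adjusted p = 0.00502) and correlated with Tyrobp at r = 0.97 over the 8 tumours. Klrk1, which encodes the DAP10 partner NKG2D, was detected on fewer than 3 arrays.

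Around C1qb, 7 of 9 complement genes rose and 0 fell, with a median of 1.33. C4b, the complement component cleaved after C1 binds, rose by 3.04 ± 0.57 (adjusted p = 0.000304) and Cd93 by 2.72 ± 0.66 (adjusted p = 0.00246). Itgb2, the beta chain of complement receptor 3, had the smallest difference and passed the test (adjusted p = 0.0449), but no control array detected it and its bound gives no fold. The count was 4 of 9 without ventral control 1 or without ventral control 3. Against 1 region alone it was 7 of 9 for the dorsal and 4 of 9 for the ventral controls. The other chains of C1q, named after their values were seen, rose by 2.45 ± 0.42 for C1qa (adjusted p = 0.000125) and 2.42 ± 0.41 for C1qc (adjusted p = 0.000126), close to the 2.34 of C1qb. Both followed Tyrobp over the tumours, C1qa at r = 0.99 and C1qc at r = 0.98.

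General leukocyte and myeloid regulators rose in 12 of 13 measured genes and fell in 0, with a median of 1.30. Against the dorsal controls alone 9 rose and 1 fell, and against the ventral controls 9 rose and 0 fell. Cd14, the lipopolysaccharide co-receptor, rose by 2.44 ± 0.34 (adjusted p = 1.75e-05) and Ncf4, a subunit of the phagocyte oxidase, by 2.24 ± 0.31 (adjusted p = 1.78e-05). Spi1, which encodes PU.1 and was detected on 3 of 8 controls and in 6 of 8 tumours, had the smallest rise, 0.43 ± 0.17 (adjusted p = 0.0409). Over the 8 tumours Ncf4 correlated with Tyrobp at r = 0.97 and Spi1 at r = 0.87, whereas Cd14 was at r = 0.03. Emilin2 and Tgfbi from the monocyte list were at r = -0.11 and 0.40. These are descriptions over the same 8 arrays.

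**Figure D5:**
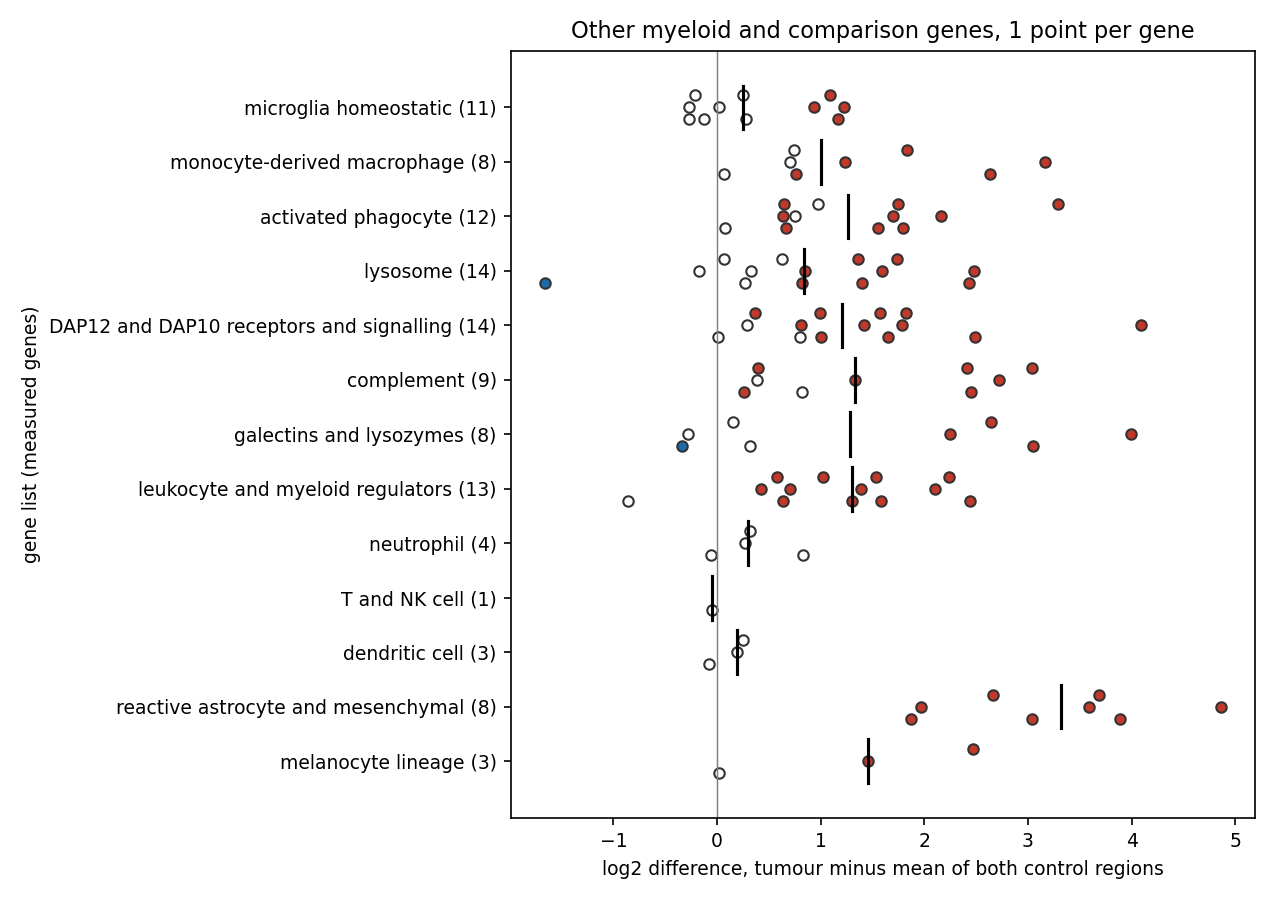
Log2 difference between tumours and the mean of both control regions (horizontal axis) for each measured gene of 13 lists (rows, with the number of genes), 1 point per gene, filled red for a rise and blue for a fall that passed limma's test, with black bars at the median. The median is 0.25 for resting microglia, 0.30 for neutrophil and 0.19 for dendritic cell genes. It is between 0.83 and 1.33 for the monocyte, activated phagocyte, lysosome, DAP12 and DAP10, complement, galectin and regulator rows. For reactive astrocyte and mesenchymal genes it is 3.32.

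No marker of another blood cell was called by limma against both regions. Of neutrophil genes 0 of 4 measured were called (smallest difference Elane, -0.06), and 1 was called higher with array weights. The largest difference among them, named after the values were seen, was 0.83 ± 0.64 for S100a8 (adjusted p = 0.288), which ran from 4.64 to 8.90 in tumours and from 4.31 to 8.05 in controls and correlated with Gpnmb at r = 0.95 over the 8 tumours. The part of neutrophils in the Gpnmb signal was not tested. Of T and NK cell genes 0 of 1 was called (Cd3e, -0.05), of dendritic cell genes 0 of 3 (smallest Flt3, -0.07), and 0 of 7 B and plasma cell genes passed the detection filter. The Fc receptor-like relatives of Fcrls were likewise unmeasured, with 0 of 5 passing. The neutrophil list's mean signal was 4.57 to 5.78 in dorsal controls, 4.46 to 4.84 in ventral controls and 4.58 to 6.10 in tumours, so the groups overlapped.

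Genes that astrocytes and tumour cells can express were higher in the tumours too. Of reactive astrocyte and mesenchymal genes 8 of 8 rose, with a median of 3.32 and a mean signal of 8.24 to 11.51 in tumours against 6.18 to 7.14 in controls. The intermediate filament gene Vim rose by 4.86 ± 0.34 (adjusted p = 1.19e-08), and the siderophore binder Lcn2, undetected on all controls, was at least 11.7-fold higher (adjusted p = 0.000464), while Gfap, the astrocyte filament gene, rose least, by 1.87 ± 0.61 (adjusted p = 0.0161). Gpnmb is also known from pigment cells, and 2 of 3 measured melanocyte genes rose, Dct to at least 4.61-fold (adjusted p = 0.0226) and Pmel, detected on 2 of 8 controls, by 1.46 ± 0.35 (adjusted p = 0.00246), with Slc45a2 at 0.01. The count was 1 without background correction, with the replicate number as a block, when detection on 8 arrays was required (which left 1 gene to test), and against the ventral controls alone. Mlana, Tyr, Tyrp1 and Trpm1 were detected on fewer than 3 arrays. The melanocyte list's mean was 4.68 to 4.84 in controls and 4.82 to 8.34 in tumours. The part of these cell types in the signals of Gpnmb, Lyz2 and Lgals3 was not tested.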

How the data were processed

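Total RNA from flash-frozen brain tissue was labelled with biotin and hybridised to Illumina mouse bead arrays, per the labels. Per the file headers, the authors deposited 1 table with the mean bead intensity of 45281 probes, without normalization or background subtraction, together with detection p-values per probe and array. A second deposited table gives the authors' log2 values of 38563 probes, whose making no source used here describes. They differed from the values computed here by at most 0.0603.

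The neqc function of limma 3.58.1, run under R 4.3.3, turned intensities into signals (offset 16, quantile normalization, log2). Probes with a detection p under 0.05 on at least 3 arrays were kept (23131), and the probe with the highest mean stood for each gene (11755 genes). All 16 arrays entered a single limma fit of the 3 groups, with Benjamini-Hochberg adjustment over all genes and a threshold of 0.05. Errors are limma standard errors unless called SD. Correlations over 8 tumours used exact permutation (Python 3.11.15, SciPy 1.17.1), adjusted over 21 pairs. Promoters came from RefSeq tables. The code was tested on simulated data.

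Named were the 7 genes, from each list up to 2 genes with the largest called rise and up to 2 with the largest fall plus the smallest difference, and 3 nearest profiles for each of the 7. The 7 genes, the lists and the tests were chosen with earlier results of these data known. Nothing shows whether controls of 1 region came from separate mice beyond the label of biological replicate, so p-values measure the spread between these samples. The number of arrays limits precision. The driver of the Cre recombinase is not reported here.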

Additional observations from a re-analysis of the deposited data

Results flagged for a closer look

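For each gene, the 5 dorsal controls and the 8 tumours were searched for an array far from the rest of its group by Dixon's criterion, 14 groups in all. Chance alone gives such a result in about 1 of 20 groups. Fcrls was at 7.12 in dorsal control 3, away from the 4 other dorsal controls at 8.79 to 9.43. Fcrls was at 6.45 in tumour 7, and the next tumour was at 9.11. Hcst was at 7.26 in tumour 1, and the next tumour was at 6.01.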

How the results depend on the processing

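The 3 macrophage genes and C1qb, Tyrobp and Hcst stayed above the controls under all alternatives tried. Fcrls turned to -0.33 against both regions and -0.92 against the dorsal controls within chip 1, and was higher in the other alternatives. Without background correction the differences shrank, to 3.52 for Gpnmb, 3.53 for Lyz2, 2.93 for Lgals3 and 0.27 for Hcst. For ventral minus dorsal, Gpnmb turned from -0.44 to 0.019 with chip as a block and to 0.093 within chip 3, and Lyz2 turned from 0.07 to -1.01 within chip 1, with a range of -0.25 to 0.41 when 1 array was left out (-0.09 without dorsal control 2, -0.25 without ventral control 2). No alternative with a test called Gpnmb or Lyz2 in this contrast. Array weights, larger in most controls than in tumours, raised the genes called between the control regions from 1111 to 4192. Leaving out 1 array gave 577 to 1260, with 613, 694 and 577 without ventral control 1, 2 and 3. The pairs that passed numbered 2 without background correction, 5 with median scaling and 1 to 4 when 1 tumour was left out. Median scaling put the median gene at 0.15 against both regions and 0.21 against dorsal controls, where quantile normalization put it at 0.01 and 0.03, and moved the share of higher genes among those called from 50.55% to 61.66% against both regions, from 51.8% to 65.41% against dorsal controls, and from 54.55% to 66.91% between the regions. Dorsal and ventral controls share replicate numbers, and same-numbered arrays deviated together by r = -0.058, 0.047 and -0.044. Dorsal and ventral arrays on the same chip were as low, at r = -0.058, -0.129 and 0.043. With so few arrays these values cannot decide whether the numbers pair the controls, and the main fit treated them as unpaired. With a replicate block 4748 genes were called against both regions (6348 without), 4771 against dorsal, 3736 against ventral controls and 1082 between the regions. Of 780 list counts under an alternative, 761 stayed within 1.5 times, 15 were lower and 4 higher. The cause of these shifts was not tested. Signals near background, as for Hcst and dorsal Lgals3, limit what the arrays resolve.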

Other observations

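Fcer1g encodes the Fc receptor gamma chain, an adaptor related to DAP12, and its probe fell into separate levels with no array between them. It was at 4.30 to 4.49 in dorsal control 3, ventral control 1 and tumours 2, 6, 7 and 8. It was at 7.33, 8.60, 8.12 and 7.76 in dorsal controls 1, 2, 4 and 5, at 7.43 and 7.32 in ventral controls 2 and 3, and at 12.53, 9.98, 10.52 and 10.22 in tumours 1, 3, 4 and 5. Tyrobp showed no such gap in the same controls. Over all arrays Fcer1g was not called in tumours (0.80 ± 1.29, adjusted p = 0.626 by limma). It was picked after its values were seen.

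Coro1a, an actin-binding protein of leukocytes, followed Tyrobp over the 8 tumours at r = 0.95, yet its tumour mean differed from both controls by -0.85 ± 0.40 (adjusted p = 0.0803 by limma). Against the dorsal controls alone it fell by 1.34 on the log2 scale (adjusted p = 0.0198). Csf1r, the receptor on which microglia depend, followed Tyrobp at r = 0.98 with a difference of 0.25 ± 0.34 (adjusted p = 0.555). Both were picked after their values were seen.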
